A study of Penicillium oxalicum with 6 samples.

Results

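In the transcriptome of Penicillium oxalicum, 90 of 9137 genes combined a high level in the wild type with a mean in the ΔPoxTMA7 mutant of at most 0.5 times the wild-type mean. Levels are given as FPKM, the fragment count of a gene corrected for its length and for the depth of the library. The members were chosen by their FPKM values in these 6 libraries. A gene belonged to the set if its wild-type mean was at least 40 FPKM, if its mutant mean was at most 0.5 times that mean, and if its highest mutant value lay below its lowest wild-type value. The ΔPoxTMA7 group was the knockout of PoxTMA7 made in the wild type, with 3 libraries, and the wild-type group (WT) had 3 libraries of the parent strain HP7-1. RNA came from mycelium that had grown on glucose for 24 h and then for another 24 h in medium with 1% Avicel, a microcrystalline cellulose, according to the treatment label, whereas the treatment protocol names raw starch as the only carbon source. Whether the 3 libraries of a genotype are separate cultures, and whether the mutant is 1 transformant or several, is not stated in the labels.

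Penicillium oxalicum is a filamentous fungus that secretes enzymes which degrade plant polysaccharides. On cellulose, fungi of this kind devote much of their transcription to cellulase and xylanase genes, which transcriptional activators switch on and carbon catabolite repression switches off. In budding yeast, Tma7 is a small protein found associated with ribosomes, and its name stands for translation machinery associated. The comparison asks which transcripts differ in level once PoxTMA7 is deleted. The identifiers in the files carry no gene names, products or positions, so the 90 genes are given by identifier. Which of them encode enzymes, and whether markers of spore formation were present in the mycelium, was not analysed here. The identifier of PoxTMA7 is not known from the files. Its own level in the mutant was therefore not checked, and the deleted gene could itself be among the 90.

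The totals behind the FPKM values, recovered from the steps between low values, were 13269238 to 20808413 reads in ΔPoxTMA7 and 11665908 to 16508834 reads in WT. Each member had between 83 and 90532 reads per ΔPoxTMA7 library (median 2084) and between 619 and 189860 per WT library (median 4915). Among the genes that were lower in ΔPoxTMA7, replicate 1 mostly stood above the other mutant libraries and nearer to WT. The other 954 genes with a WT mean of at least 40 FPKM, lower and higher ones together, had nearer medians. These were 93.03%, 88.8% and 94.1% of the WT mean in replicates 1, 2 and 3. Replicate 1 was the highest mutant library in 44.03% of the 954 and replicate 3 in 39.7%. In the 303 of them at over 0.5 and up to 0.8 times WT, replicate 1 was highest in 76.6%. The size of the set, the summed level and the spread between libraries are given with and without replicate 1. In RNA from whole mycelium, fewer cells of a type and less transcript per cell cannot be told apart.

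The 90 members took a much smaller part of the transcriptome in ΔPoxTMA7 than in WT. They summed to 7765, 5759 and 5182 FPKM in ΔPoxTMA7 replicates 1, 2 and 3, against 18576, 18162 and 19076 FPKM in WT replicates 1, 2 and 3. Their share of the FPKM sum of all genes was 2.55 ± 0.573% in ΔPoxTMA7 and 7.58 ± 0.176% in WT (SD, n = 3 each). Without ΔPoxTMA7 replicate 1 the mutant share was 2.22%. The direction of these sums follows from the rule and carries no test.

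Most members kept between 25% and 50% of their WT level, and a small number nearly disappeared. The mutant mean was 2.80% to 49.95% of the WT mean, with a median of 37.1%; the other 954 genes with a WT mean of at least 40 FPKM had a median of 92.5%. In 39 members the mutant kept over 0.4 and up to 0.5 of the WT mean, and in 29 over 0.25 and up to 0.4. In 17 members it kept over 0.1 and up to 0.25, in 3 over 0.05 and up to 0.1, and in 2 at most 0.05. The median member had 34.3 FPKM in ΔPoxTMA7 and 90.2 FPKM in WT. Of the 90, 51 had a WT mean under 100 FPKM, 30 had 100 to 500 FPKM and 9 had 500 FPKM or more. Over the 90 members, the WT mean and the retained percentage had a Spearman correlation of 0.03, a description over genes that share the same 6 libraries.

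**Figure D1:**
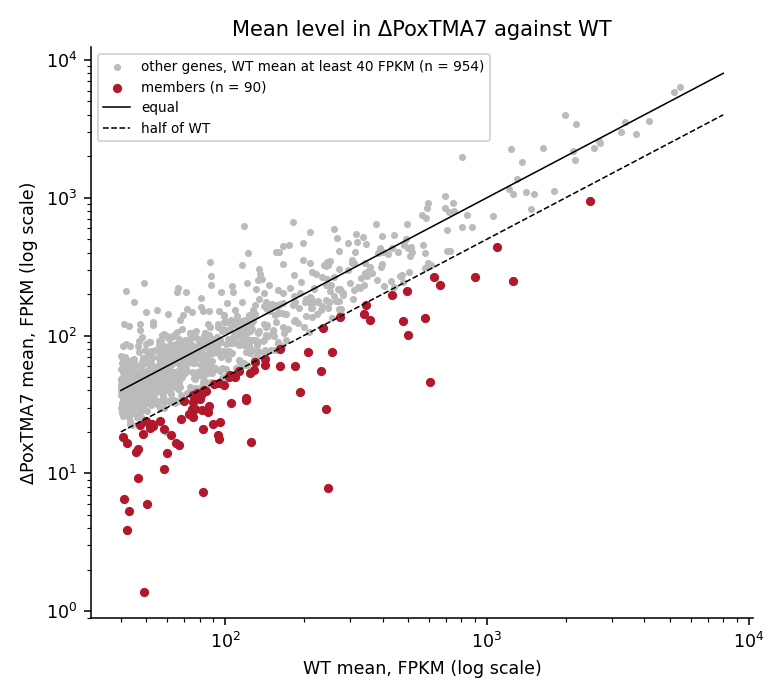
Mean level of each gene with a WT mean of at least 40 FPKM, ΔPoxTMA7 (vertical axis) against WT (horizontal axis), both in FPKM on log scales; red points are the 90 members, grey points the other 954 genes, and the lines mark equal levels and 0.5 times WT. The members run along the lower edge from 40.8 to 2482 FPKM in WT, and single points lie far below it.

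The rule used the contrast between the genotypes, so the counts that follow describe the choice and support nothing. Of the 1044 genes with a WT mean of at least 40 FPKM, 91 (8.72%) had a mutant mean of at most 0.5 times the WT mean, 471 (45.1%) had all mutant values below all WT values, and 90 (8.62%) met both. All 90 passed the filter on low values and all 90 were called lower in a limma fit over every tested gene (adjusted p under 0.05), beside 1163 of 6743 tested genes (17.2%). Their log2(FPKM + 1) changes were -5.16 to -1.0, with a median of -1.41 and standard errors of 0.08 to 0.74. Over the tested genes the median change was 0.11. Scaling the libraries by the median ratio, which removes that shift, enlarged the set to 139 genes, among them all 90.

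The set reached into the most abundant transcripts of the wild type. By rank of the mean over all genes, 15 members stood among the 100 highest in WT and 2 among the 100 highest in ΔPoxTMA7. Among the 500 highest there were 62 in WT and 19 in ΔPoxTMA7. The median rank of a member was 1184 in ΔPoxTMA7 and 392 in WT. The rule demanded a high WT mean and a lower mutant mean, so the direction of these ranks follows from the choice.

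POX_3g04236, the most abundant member, had 1238, 963 and 650.2 FPKM in ΔPoxTMA7 replicates 1, 2 and 3, against 2459.7, 2547 and 2439.8 FPKM in WT. WT values lay within 1.04-fold of each other and mutant values spread 1.90-fold, with replicate 1 highest and replicate 3 lowest. The mutant kept 38.3% of the WT mean, and the gene ranked 25 in ΔPoxTMA7 and 10 in WT. POX_2g03188 was the second in WT level, with 232, 225 and 287 FPKM in ΔPoxTMA7 and 1252, 1294 and 1224 FPKM in WT. Both groups of POX_2g03188 were narrow, and its mutant mean of 248 ± 33.9 FPKM was 19.7% of the WT mean of 1257 ± 35.0 FPKM (SD, n = 3 each). POX_5g06613 had 475, 442 and 409 FPKM in ΔPoxTMA7 and 1073, 1032 and 1174 FPKM in WT, which left 40.4%. POX_3g04280 had 284, 248 and 268 FPKM in ΔPoxTMA7 and 958, 800.4 and 951 FPKM in WT, which left 29.5%. In POX_2g03188, POX_5g06613 and POX_3g04280 the loss was of a like size in all 3 mutant libraries.

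Of the 10 members highest in WT, POX_5g07481 lost the most. It had 61.0, 41.2 and 35.9 FPKM in ΔPoxTMA7, against 614, 699 and 504 FPKM in WT, so that 7.60% of the WT mean remained, 13.2-fold lower. Its lowest WT value was 8.26 times its highest mutant value. POX_5g07156 had 249, 247 and 197 FPKM in ΔPoxTMA7 and 589, 717 and 679 FPKM in WT. In POX_5g06813, 200.2, 114 and 85.6 FPKM in ΔPoxTMA7 stood against 583, 514 and 649.5 FPKM in WT, and in POX_7g09999, 389.7, 206 and 206 FPKM stood against 644, 537 and 702 FPKM. POX_5g07223 had 343, 152 and 137 FPKM in ΔPoxTMA7 and 512, 459 and 513 FPKM in WT. In POX_5g06813, POX_7g09999 and POX_5g07223 the mutant libraries differed in the depth of the loss, since replicate 1 stood more than 1.5-fold above both others. POX_7g09951 had the opposite order, with 45.0, 103 and 154 FPKM in ΔPoxTMA7 replicates 1, 2 and 3 against 500.01, 411 and 595 FPKM in WT.

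**Figure D2:**
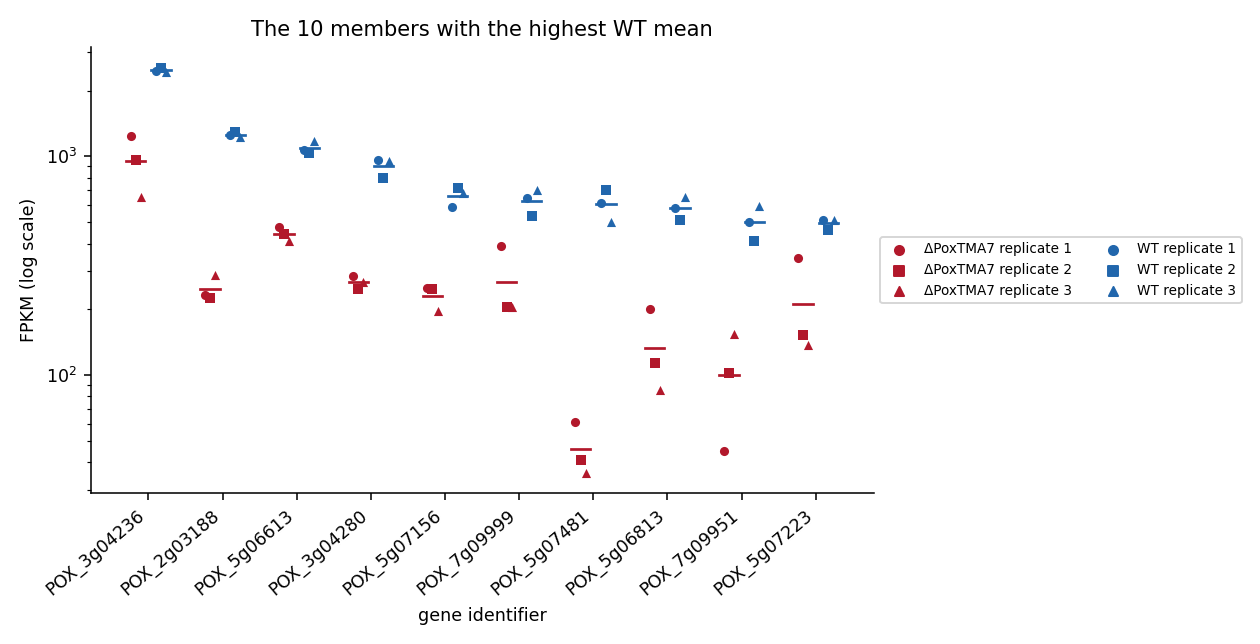
FPKM on a log scale in each library for the 10 members with the highest WT mean, ΔPoxTMA7 in red to the left of WT in blue; symbols mark the replicates and bars the mean of 3. POX_5g07481 has the widest gap, with 35.9 to 61.0 FPKM in ΔPoxTMA7 and 504 to 699 FPKM in WT, and POX_7g09951 is lowest in ΔPoxTMA7 replicate 1, where most of the others are highest.

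The deepest losses were in genes of moderate WT level as well as in abundant ones. POX_5g06944 kept the smallest share: it had 1.70, 1.03 and 1.39 FPKM in ΔPoxTMA7, against 39.8, 46.2 and 60.8 FPKM in WT, which is 2.80% of the WT mean or 35.7-fold lower. These mutant values rest on 87, 83 and 87 reads, against 1797, 2951 and 3271 reads in WT. All 3 mutant libraries of POX_5g06944, replicate 1 included, were at least 23.5 times below the lowest WT library. By rank of the mean it stood at 6485 in ΔPoxTMA7 and at 824 in WT.

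POX_1g01040 kept 3.19% of its WT mean but was uneven in both genotypes, with 18.9, 1.94 and 2.89 FPKM in ΔPoxTMA7 and 292, 99.3 and 351 FPKM in WT. Replicate 1 of the mutant was 7.81 times the mean of the other mutant libraries, and WT replicate 2 was 0.309 times the mean of the other WT libraries. Its groups were 5.26-fold apart at their nearest values. Without ΔPoxTMA7 replicate 1 it kept 0.976% of the WT mean.

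POX_1g00222 had 11.5, 6.01 and 4.31 FPKM in ΔPoxTMA7, against 82.8, 91.2 and 73.0 FPKM in WT (8.85% retained). POX_7g09175 had 4.05, 2.96 and 4.71 FPKM in ΔPoxTMA7 and 36.4, 40.4 and 49.6 FPKM in WT (9.26% retained). In POX_3g03841, 57.2, 16.8 and 13.4 FPKM in ΔPoxTMA7 stood against 259, 273 and 199.9 FPKM in WT (11.9% retained, and 6.19% without replicate 1). In these 3 genes the genotypes were separated by a wide margin, but only POX_7g09175 had no mutant library that stood clearly above the others.

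POX_2g02812 had 9.24, 4.89 and 3.95 FPKM in ΔPoxTMA7, against 50.5, 41.6 and 58.8 FPKM in WT. POX_5g06973 had 7.02, 4.51 and 4.44 FPKM in ΔPoxTMA7, against 47.6, 26.5 and 55.2 FPKM in WT. POX_7g09863 had 21.8, 11.6 and 17.3 FPKM in ΔPoxTMA7 and 134, 49.1 and 196 FPKM in WT. POX_5g06973 and POX_7g09863 were low in WT replicate 2 compared with the other WT libraries. POX_2g03067 was the most even of the deep losses, with 6.14, 7.17 and 6.22 FPKM in ΔPoxTMA7 and 37.3, 43.3 and 42.6 FPKM in WT. It kept 15.9% of its WT mean, with a log2(FPKM + 1) change of -2.49 and a standard error of 0.10.

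**Figure D3:**
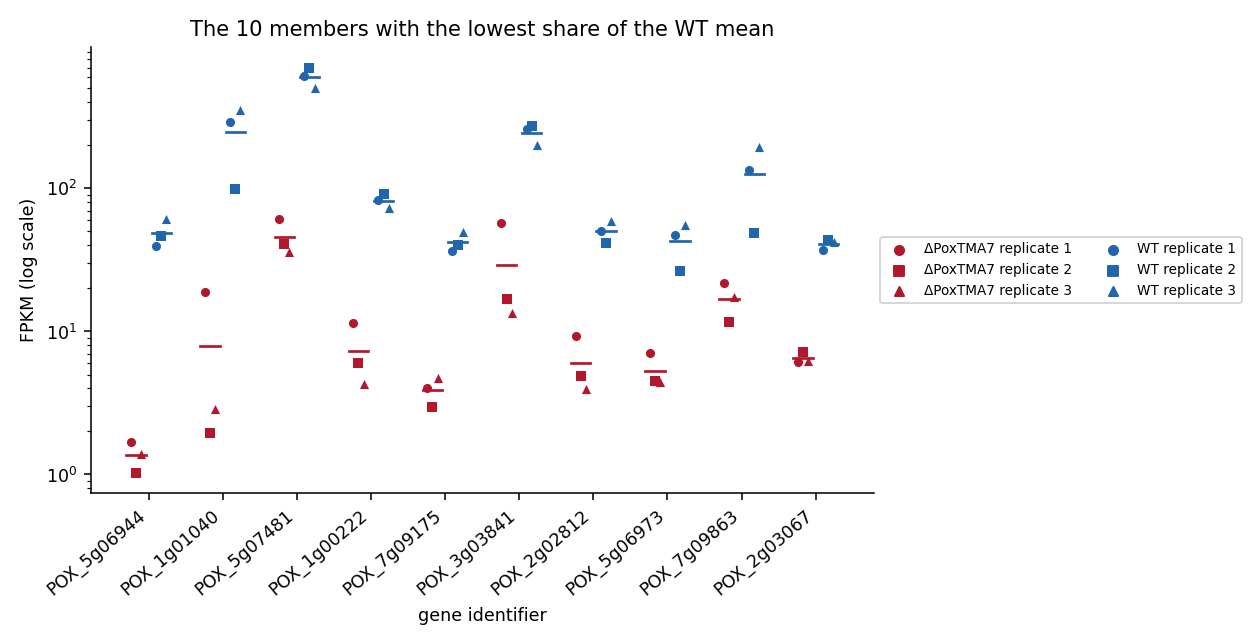
FPKM on a log scale in each library for the 10 members whose mutant mean is the smallest share of the WT mean, ΔPoxTMA7 in red to the left of WT in blue; symbols mark the replicates and bars the mean of 3. POX_5g06944 lies at 1.03 to 1.70 FPKM in every mutant library, and POX_1g01040 spreads from 1.94 to 18.9 FPKM.

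The median coefficient of variation was 27.3% in ΔPoxTMA7 and 11.1% in WT for the members, and 11.04% in ΔPoxTMA7 and 4.78% in WT for the other 954 genes. The condition that the groups do not overlap limits how wide a member can spread, and no test of this difference was made. The highest mutant library was at least 2 times the lowest in 25 members (27.8%) and in 65 of the other genes (6.81%). Most of the spread in ΔPoxTMA7 involved replicate 1. Between replicates 2 and 3 alone the median coefficient of variation was 9.99% in the members and 6.72% in the other genes, and 1 member, POX_5g07240, and 8 of the other genes were at least 2-fold apart. Between replicates 1 and 2 that median was 30.3% in the members, and between replicates 1 and 3 it was 30.1%. In WT the highest of the 3 libraries was at least 2 times the lowest in 6 members (6.67%) and in 11 of the other genes (1.2%).

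In 9 members the 3 libraries of each genotype lay within 25% of each other (the highest over the lowest): POX_1g00720, POX_1g01081, POX_2g03067, POX_3g04280, POX_5g06613, POX_5g07480, POX_6g08105, POX_6g08296 and POX_7g09446. POX_1g01081 was the narrowest in WT, with 15.2, 13.6 and 14.4 FPKM in ΔPoxTMA7 and 45.8, 46.0 and 45.0 FPKM in WT (31.6% retained). POX_6g08105 had 49.8, 48.5 and 51.5 FPKM in ΔPoxTMA7 and 119.7, 98.0 and 110.4 FPKM in WT, and POX_7g09446 had 37.3, 39.6 and 37.2 FPKM against 86.4, 76.1 and 82.1 FPKM. These examples were picked after their values were seen, and the limit of 25% was set on both genotypes. Without ΔPoxTMA7 replicate 1 there were 35 such members, against 13 without replicate 2 and 20 without replicate 3. Mutant replicates 2 and 3 lay within 25% of each other in 63 members.

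In most members ΔPoxTMA7 replicate 1 had lost less than the other mutant libraries. It was the highest mutant library, and so the nearest to WT, in 73 of 90 members (81.1%), replicate 2 in 8 and replicate 3 in 9. The median member stood at 44.8% of its WT mean in replicate 1, at 31.9% in replicate 2 and at 30.6% in replicate 3. This order was not particular to the members. Replicate 1 was also the highest in 232 of the 303 other genes at 40 FPKM or more whose mutant mean was over 0.5 and up to 0.8 times WT (76.6%), but in 187 of the 650 genes above 0.8 times WT (28.8%). Differences within the mutant group were not tested, since replicate 1 is 1 library, and its part in the size of the set and in the depth of the loss is given by the values without it.

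**Figure D4:**
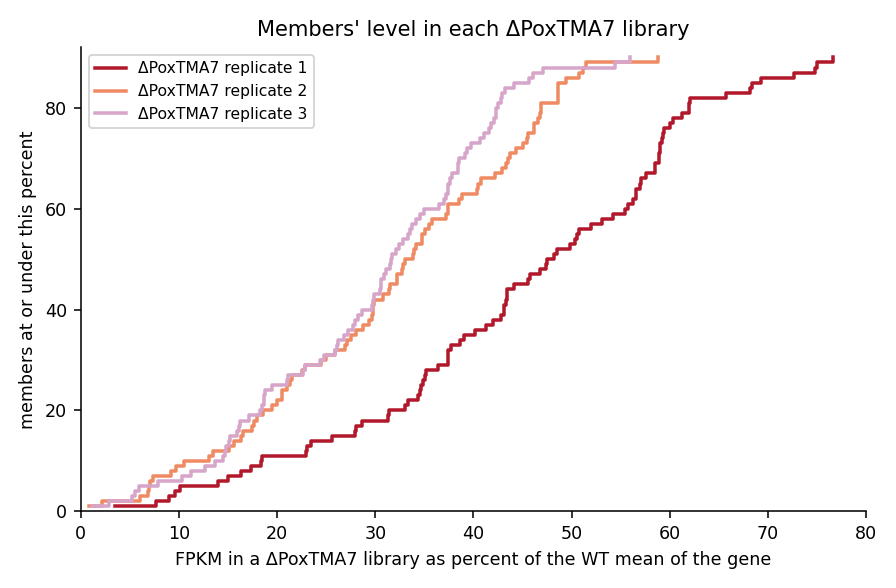
Number of the 90 members (vertical axis) whose level in a ΔPoxTMA7 library is at or under a given percent of the WT mean of the gene (horizontal axis), with 1 line per mutant library. The lines of replicates 2 and 3 run close together, with medians of 31.9% and 30.6%, and that of replicate 1 lies to the right of them, with a median of 44.8%.

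The size of the set depended on that library. When the rule was applied without ΔPoxTMA7 replicate 1, it chose 137 genes, among them 89 of the 90 members. In those 137 genes replicate 1, which had no part in choosing them, had a median of 57.6% of the WT mean, against 37.9% for the mean of replicates 2 and 3. Replicate 1 was above both other mutant libraries in 120 of the 137 and below the WT mean in 132, and in 7 it reached the lowest WT value or more.

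The loss was also read in libraries that had no part in choosing the genes. The rule was applied 9 times to 2 mutant and 2 WT libraries, and the genes chosen were read in the remaining pair. With ΔPoxTMA7 replicate 2 as the library read, the 83 to 90 genes chosen had a median of 30.2% to 33.3% of the WT library read. With replicate 3, the 73 to 88 genes had 28.8% to 33.1%. With replicate 1, the 135 to 139 genes had 58.1% to 58.7%, and 35.5% to 36.3% of them were at or under 50%. For replicates 2 and 3 that share was 77.3% to 93.2%. Not every gene chosen was lower in the pair read. In replicate 1 against WT replicate 3, 125 of 135 were lower, and POX_5g07710 stood at 307%. In replicate 3 against WT replicate 2, 83 of 88 were lower, and POX_5g07591 stood at 271%. All were lower in replicate 2 against WT replicates 1 (84 genes) and 3 (83 genes), and in replicate 3 against WT replicate 3 (73 genes). The 9 readings share libraries and are not independent of each other.

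In 15 members replicate 1 was at least 2 times both other mutant libraries (16.7%, against 1.68% of the other 954 genes). Of the 303 other genes at over 0.5 and up to 0.8 times WT, 2.31% had replicate 1 in that position. No member had replicate 2 or 3 there. The rule used the mutant values, through their mean and their highest value, and no test of the difference in these shares was made. POX_1g01040, described above, had the largest excess in replicate 1 of all 90 members. POX_7g09179 came nearest to WT, with 43.9, 9.16 and 9.45 FPKM in ΔPoxTMA7 replicates 1, 2 and 3 and 48.5, 74.1 and 53.2 FPKM in WT. Its lowest WT value was 1.11 times replicate 1, and the mutant kept 35.5% of the WT mean with that library and 15.9% without it. POX_5g07240 had 20.1, 3.54 and 8.44 FPKM in ΔPoxTMA7 and 65.1, 24.7 and 85.3 FPKM in WT, and kept 18.4% with replicate 1 and 10.3% without it. POX_1g01189 had 33.1, 8.10 and 16.1 FPKM in ΔPoxTMA7 and 55.9, 56.6 and 74.2 FPKM in WT, and kept 30.7% with replicate 1 and 19.5% without it. POX_6g08557, with 44.7, 15.9 and 15.9 FPKM in ΔPoxTMA7 and 72.5, 86.1 and 68.6 FPKM in WT, showed equal levels in replicates 2 and 3 and 2.81 times as much in replicate 1. It kept 33.7% of the WT mean with replicate 1 and 21.02% without it.

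POX_6g08822 had 205, 109 and 71.0 FPKM in ΔPoxTMA7, against 457, 554 and 425 FPKM in WT. POX_2g03196 had 32.6, 12.7 and 11.9 FPKM in ΔPoxTMA7, against 111, 100.4 and 71.2 FPKM in WT. Replicate 1 was highest in both. POX_6g08822 kept 26.8% with replicate 1 and 18.8% without it, and POX_2g03196 kept 20.3% with it and 13.1% without it. The reverse was rare: replicate 1 was the lowest mutant library in 5 members, POX_1g01736, POX_2g03067, POX_2g03187, POX_4g05413 and POX_7g09951.

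A second pattern lay within the wild type. In 9 members WT replicate 2 was at least 1.5 times below both other WT libraries (10%, against 6 of the other 954 genes, 0.629%). No member, and none of the other 954 genes, had WT replicate 1 or 3 in that position. The rule used these WT values, through their mean and their lowest value. These shares therefore describe genes chosen by the same values, and no test of their difference was made. The 9 genes, grouped after their values were seen, were POX_1g01040, POX_7g09863, POX_3g04363, POX_1g00793, POX_6g08733, POX_2g03345, POX_5g07240, POX_3g03941 and POX_5g06973. WT replicate 3 was the highest WT library in all 9, and in 34 of the 90 members. ΔPoxTMA7 replicate 2 was the lowest mutant library in 7 of the 9 and replicate 3 in 2. Over the 90 members replicate 2 was the lowest in 30 and replicate 3 in 55. No link between libraries of the same number was assumed. In the 9 genes the mutant kept 3.19% to 35.7% of the WT mean, with a median of 18.9%.

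Values of POX_3g04363 were 48.4, 25.9 and 31.5 FPKM in ΔPoxTMA7 and 136, 84.4 and 141 FPKM in WT, and those of POX_6g08733 were 21.7, 15.7 and 16.2 FPKM in ΔPoxTMA7 and 105, 64.6 and 115 FPKM in WT. POX_1g00793 had 33.7, 19.7 and 17.8 FPKM in ΔPoxTMA7 and 113, 61.96 and 114 FPKM in WT. POX_2g03345 had 30.5, 24.3 and 32.4 FPKM in ΔPoxTMA7 and 90.7, 49.4 and 104 FPKM in WT. In each of them WT replicates 1 and 3 were close to each other, while the place of replicate 2 between them and the mutant follows from how the genes were chosen. High values were not particular to 1 WT library. At a looser limit, at least 25% above both other WT libraries, replicate 2 was high in 5 members (5.56%, against 1.47% of the other 954 genes) and replicate 3 in 5 members (5.56%, against 0.839%). The size of the excess in ΔPoxTMA7 replicate 1 and that of the deviation of WT replicate 2 had a Spearman correlation of 0.06 over the 90 members, as a description over genes from the same libraries.

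**Figure D5:**
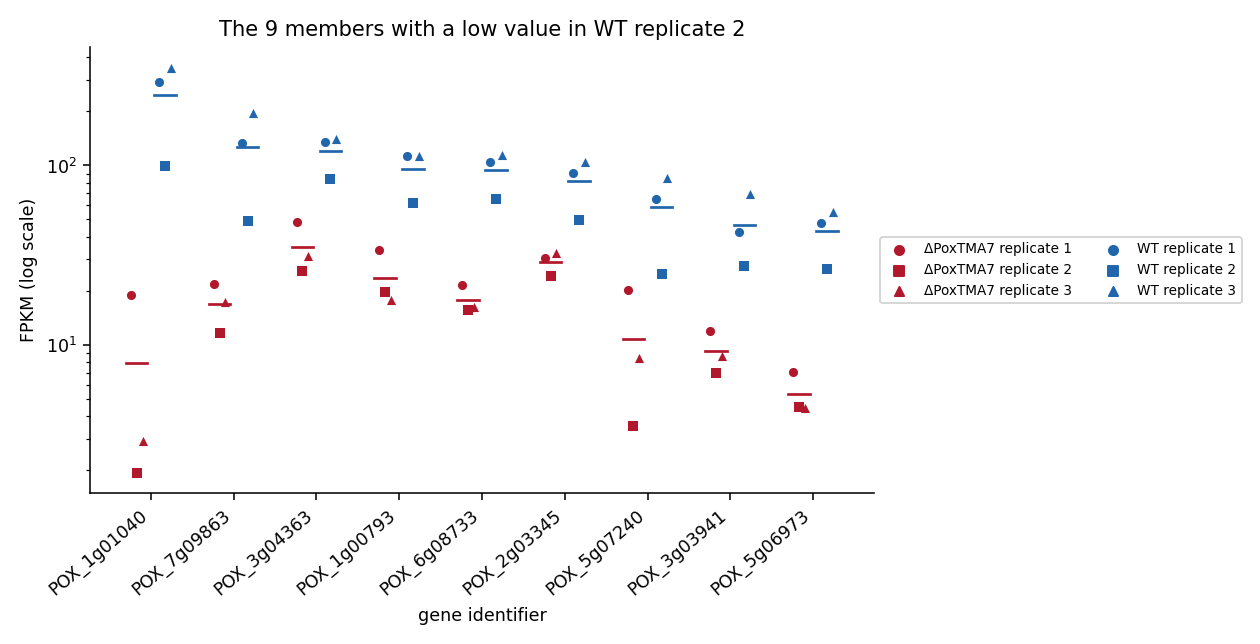
FPKM on a log scale in each library for the 9 members with WT replicate 2 at least 1.5 times below both other WT libraries, ΔPoxTMA7 in red to the left of WT in blue; symbols mark the replicates and bars the mean of 3. WT replicate 2 (blue square) is below the other WT libraries and above the mutant libraries in each gene because the genes were chosen so; the mutant kept 3.19% to 35.7% of the WT mean.

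In 3 places both members of a pair carried consecutive identifier numbers. POX_5g07480 and POX_5g07481 differed in depth: POX_5g07480 had 55.7, 57.9 and 55.0 FPKM in ΔPoxTMA7 and 130.3, 131 and 125 FPKM in WT (43.7% retained), beside 7.60% in POX_5g07481. Their neighbours POX_5g07479 and POX_5g07482 kept 115% and 85.3% of the WT mean. POX_2g03187 had 32.8, 39.8 and 46.2 FPKM in ΔPoxTMA7 and 83.8, 78.0 and 92.5 FPKM in WT, beside the abundant POX_2g03188 described above. POX_2g03186 before them kept 75.3% and POX_2g03189 after them 93.5%.

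The remaining pair was part of a looser run. POX_3g03941 had 11.9, 7.003 and 8.66 FPKM in ΔPoxTMA7 and 42.5, 27.6 and 69.3 FPKM in WT. POX_3g03942 had 19.2, 12.5 and 13.3 FPKM in ΔPoxTMA7 and 52.4, 51.5 and 35.4 FPKM in WT. WT replicate 3 was the highest WT library of POX_3g03941 and the lowest of POX_3g03942. In ΔPoxTMA7 both were highest in replicate 1 and lowest in replicate 2. Whether these neighbours vary together was not tested. POX_3g03945, with 22.1, 13.4 and 13.01 FPKM in ΔPoxTMA7 and 68.6, 56.1 and 76.2 FPKM in WT, followed after POX_3g03943 and POX_3g03944, which kept 66.9% and 88.8%.

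POX_8g10134 and POX_8g10136 were separated by POX_8g10135, a gene at 0.0219 FPKM in ΔPoxTMA7 and 0.0525 FPKM in WT. POX_8g10134 had 75.6, 74.2 and 77.9 FPKM in ΔPoxTMA7 and 181, 229 and 213 FPKM in WT. POX_8g10136 had 54.0, 31.5 and 30.7 FPKM in ΔPoxTMA7 and 183, 210.0 and 187 FPKM in WT. Their levels were alike in WT and not in the mutant, where POX_8g10134 was even and POX_8g10136 was highest in replicate 1. Other genes next to a member, those beside such pairs included, mostly kept their level. Of 156 other genes whose number adjoins that of a member, 92 had a WT mean of at least 5 FPKM, and their median was 100.3% of WT, beside 104% for all 4734 genes of that level. A mutant mean of at most 0.5 times WT was found in 6 of the 92 (6.52%) and in 226 of the 4734 (4.77%). Whether the numbers follow the order of genes along the genome is not stated in the files.

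The members were spread over all 8 main identifier numbers (the digit before the letter g). They made up 13.8% of the genes at 40 FPKM or more under number 5 (19 of 138), 12.4% under number 6 (13 of 105) and 11.5% under number 3 (15 of 130). The lowest share was 4.13% under number 4 (5 of 121), and those under numbers 1, 2, 7 and 8 were 6.31%, 7.33%, 7.87% and 6.56%. The files do not say what this digit denotes. The gene lengths implied by the FPKM steps had a median of 3494 bp in the members (1417 to 11145 bp) and 3938 bp in the other 954 genes (1366 to 25430 bp). Over the 90 members the implied length and the retained percentage had a Spearman correlation of 0.13.

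The limits of the set cut through a continuous range. At the limit on WT level, POX_1g00720 (40.8 FPKM in WT, 45.2% retained), POX_2g03067 (41.1 FPKM) and POX_3g03910 (42.1 FPKM, 39.6% retained) were just inside. POX_6g07995 (39.8 FPKM in WT, 38.1% retained), POX_8g10476 (39.6 FPKM, 18.0% retained) and POX_2g02132 (38.1 FPKM, 22.8% retained) were just outside. At the limit on the retained share, POX_1g00799, POX_3g04528 and POX_5g07525 were inside at 49.95%, 49.8% and 49.7%, and POX_2g02170, POX_1g00509 and POX_7g09346 were outside at 50.02%, 50.1% and 50.4%. POX_1g00799 had 188, 116 and 108 FPKM in ΔPoxTMA7 and 273, 246 and 305 FPKM in WT.

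On the condition that groups do not overlap, POX_7g09179, POX_3g04122 and POX_1g01197 were the closest inside. POX_3g04122 had 73.0, 32.5 and 30.8 FPKM in ΔPoxTMA7 and 97.6, 82.6 and 106 FPKM in WT, and POX_1g01197 had 72.3, 32.0 and 27.1 FPKM in ΔPoxTMA7 and 104, 86.4 and 108 FPKM in WT. A single gene failed this condition alone. POX_8g10128 had 52.0, 4.98 and 3.47 FPKM in ΔPoxTMA7 and 52.0, 77.7 and 49.3 FPKM in WT, so that its replicate 1 lay within the WT range while replicates 2 and 3 were far below it.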

How the data were processed

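The authors deposited 1 table per library with gene identifiers and FPKM, per the file headers. Per the labels' protocols, poly(A) RNA was fragmented, reverse transcribed with random primers and made into circular single-stranded libraries. The submitters' processing notes name bcl2fastq. Aligner, counting tool, genome build, annotation and strandedness: not given in the sources used here. The 6 tables were joined by identifier, and a gene not listed in a library was set to 0. None of the identifiers matched the reference table (assembly ASM172317v3), so names, products, positions and sequences were not used, nor were the lists fixed by product name.

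The members and lists were chosen with earlier results of these data known. Genes named are the 10 members highest in WT, the 10 with the lowest retained share, the 10 widest within a genotype (of those 2-fold or more), pairs with consecutive numbers, and 3 genes on each side of each threshold where they exist; others were chosen after their values were seen.

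For the fit, a gene needed 1 FPKM or more in 3 or more libraries. limma 3.58.1 (R 4.3.3) was run on log2(FPKM + 1), with genotype as the only term and a trend of the variance with abundance. Tests were two-sided, and p-values were adjusted over every tested gene by the Benjamini-Hochberg method, with a threshold of 0.05. Such changes understate those of low genes. The labels do not say that libraries are separate cultures. These p-values set the genotype difference against the spread between libraries, which may be technical. Other values were computed in Python 3.11.15 with NumPy 2.4.6 and pandas 2.3.3. Reads were recovered as the whole numbers behind the FPKM steps: a search for the total that makes lengths whole (within 0.05) succeeded for 99.5% of 619 low genes, and whole reads (within 0.02) followed for all 8785 genes listed in at least 3 libraries, summing to 99.6% to 99.7% of the totals. Where all reads of a gene have a divisor in common, the recovered number may be too small. For a gene of median implied length, 3 reads equal 0.0397 to 0.0707 FPKM. The recovery and the fit were tested on data simulated from the recovered reads and implied lengths, which cannot show that these are right. Alternatives were other thresholds, pseudocounts, filters and scaling, a replicate block, limma-voom on the recovered reads, and each library left out.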

Additional observations from a re-analysis of the deposited data

How the results depend on the processing

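The thresholds decide the size of the set. It held 90 genes as reported, 51 with a mutant mean of at most 0.4 times WT, and 139 with median-ratio scaling, which kept all 90. A WT mean of at least 30 or 60 FPKM gave 108 and 70 genes. Leaving out 1 library gave 76 to 137 genes, the highest without ΔPoxTMA7 replicate 1 (89 of the 90 among them) and the lowest without ΔPoxTMA7 replicate 3 (71 of the 90). The median retained share, 37.1%, was 33.4% with median-ratio scaling and 31.2% to 40.1% when 1 library was left out. The rule applied without the pair of libraries read chose sets of 73 to 139 genes, not all of them members. Their medians were 58.7%, 58.1% and 58.3% in ΔPoxTMA7 replicate 1, against WT replicates 1, 2 and 3 in that order. In the same order they were 30.2%, 33.1% and 33.3% in replicate 2 and 28.9%, 33.1% and 28.8% in replicate 3. The members' share of recovered reads was 2.39% in ΔPoxTMA7 and 7.03% in WT, in place of 2.55% and 7.58% of the FPKM sum; leaving out 1 library gave 2.22% to 2.76% in ΔPoxTMA7 and 7.49% to 7.66% in WT. ΔPoxTMA7 replicate 1 was nearest to WT in 73 members with either scaling, and in 120 of the 137 genes chosen without it. All 90 members stayed called lower with a pseudocount of 0.1, without a filter, with a filter at 5 FPKM, with median-ratio scaling and with limma-voom on recovered reads. With the replicate block 90 were called; libraries with the same number had deviations from the genotype mean that correlated at 0.0219, 0.0328 and 0.173, and the labels tie no numbers together, so no pairing was assumed. Leaving out 1 library gave 86 to 90. The 4 members that lost the call without some library were POX_7g09179, POX_3g04122, POX_1g01197 and POX_6g08551, at limma adjusted p of 0.0515 to 0.0945. As an alternative chosen after seeing the data, the spread between mutant libraries was taken without ΔPoxTMA7 replicate 1: the 25 members 2-fold or more apart became 1, and the 9 members within 25% in both genotypes became 35 (20 without replicate 3). Other values of single genes and counts within the set were not repeated under each setting. The identifiers could not be tied to gene products, and the labels name the carbon source in more than one way.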
